A study of Homo sapiens with 23 samples.

Results

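The genes of homologous recombination, of the Fanconi pathway and of the replication checkpoint were followed in A549 cells, a human lung adenocarcinoma line, after depletion of THUMPD3, an enzyme that methylates guanosine in transfer RNA. The set was a list of 42 genes taken by name. The rule used none of their values, but the list was chosen with earlier results of these data known. The shares of members called below are therefore descriptions and not an independent test. All 42 were found among the 61806 genes of the first count table and among the 42901 of a second, more deeply sequenced table. Total RNA was depleted of ribosomal RNA before directional libraries were made.

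The 3 knockdowns were each set against their own control cells. The siRNA siD3 #3, collected on the fifth day after transfection, had 3 libraries and its control siControl had 2. The doxycycline-inducible shRNAs shD3 #1 and shD3 #4, carried by lentivirus in puromycin-selected cells and collected on the sixth day, had 3 libraries each, as had their controls sh1Control and sh4Control. The second table held 3 deep libraries of sh1Control and 3 of shD3 #1. Controls carried the genotype label WT. The study's methods call them untreated, and the labels do not say whether the shRNA controls were uninduced cells of the same line. The sources used here describe selection of transduced cells with puromycin and do not mention the picking of clones.

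Homologous recombination copies an intact sister DNA to mend a double-strand break. Nucleases first trim the broken ends, BRCA1 and BRCA2 with their partners prepare the trimmed ends for strand exchange, XRCC2, XRCC3 and RAD54 enzymes help to pair the strands, and helicases or nucleases then take the joined molecules apart. The Fanconi pathway unhooks cross-links between DNA strands: a core complex attaches ubiquitin to FANCD2 and FANCI, which then recruit recombination proteins. ATR, ATM and their effector kinases CHEK1 and CHEK2 slow the cell cycle while this goes on. Many of these genes are transcribed mainly in S phase, under E2F factors, and cells that stop dividing express less of them.

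Before the comparisons, the start regions of 5 members are shown, to show sequence words that the choice of members did not use. The windows are from RefSeq on GRCh38, 300 bases each, from 250 before to 50 after the start, written 5′ to 3′ on the strand of the gene. Capitals mark the E2F words TTTCCCGC, TTTCGCGC, TTTGCCGC and TTTGGCGC, the word CCAAT and the cell-cycle word TTTGAA, each searched on both strands. The words do not overlap each other in the windows shown. *EXO1*, *XRCC2* and *FANCD2* are shown as members with an E2F word, *BLM* as a member that fell with no E2F word in its window, and *MUS81* as a member that was called in no comparison. They were chosen after their values were seen, and of the 2 windows of *EXO1* the one with the word is shown.
*EXO1* (chr1:241847954-241848253, plus strand): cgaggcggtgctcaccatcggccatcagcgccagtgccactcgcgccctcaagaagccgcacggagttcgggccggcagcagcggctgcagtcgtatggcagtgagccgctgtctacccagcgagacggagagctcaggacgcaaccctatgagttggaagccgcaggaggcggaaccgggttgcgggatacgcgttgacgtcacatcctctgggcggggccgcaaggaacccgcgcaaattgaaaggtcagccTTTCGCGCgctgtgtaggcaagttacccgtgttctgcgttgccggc
*XRCC2* (chr7:152676092-152676391, minus strand): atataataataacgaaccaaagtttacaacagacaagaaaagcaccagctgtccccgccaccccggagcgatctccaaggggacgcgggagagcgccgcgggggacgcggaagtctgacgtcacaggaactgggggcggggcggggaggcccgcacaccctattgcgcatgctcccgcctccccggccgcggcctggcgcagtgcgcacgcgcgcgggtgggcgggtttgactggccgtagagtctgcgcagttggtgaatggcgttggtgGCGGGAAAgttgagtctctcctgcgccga
*FANCD2* (chr3:10026187-10026486, plus strand): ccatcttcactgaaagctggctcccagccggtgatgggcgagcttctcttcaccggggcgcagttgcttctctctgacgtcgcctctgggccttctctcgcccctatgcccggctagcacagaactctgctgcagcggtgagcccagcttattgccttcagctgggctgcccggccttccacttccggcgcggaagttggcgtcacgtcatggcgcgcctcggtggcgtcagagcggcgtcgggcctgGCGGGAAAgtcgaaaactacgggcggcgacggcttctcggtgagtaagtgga
*BLM* (chr15:90717096-90717395, plus strand): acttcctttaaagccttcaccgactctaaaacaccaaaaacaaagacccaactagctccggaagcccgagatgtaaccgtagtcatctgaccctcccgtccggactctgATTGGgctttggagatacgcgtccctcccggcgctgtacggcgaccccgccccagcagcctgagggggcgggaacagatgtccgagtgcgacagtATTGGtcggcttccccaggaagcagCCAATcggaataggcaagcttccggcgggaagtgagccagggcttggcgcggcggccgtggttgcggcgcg
*MUS81* (chr11:65860183-65860482, plus strand): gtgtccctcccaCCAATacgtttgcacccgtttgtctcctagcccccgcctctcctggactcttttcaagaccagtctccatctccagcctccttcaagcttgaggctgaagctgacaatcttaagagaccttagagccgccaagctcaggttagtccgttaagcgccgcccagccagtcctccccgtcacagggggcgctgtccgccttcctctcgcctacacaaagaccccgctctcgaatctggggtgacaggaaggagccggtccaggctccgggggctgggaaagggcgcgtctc

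A RefSeq window was matched for 37 of the 42 members, with 49 windows in all. *NBN*, *DNA2*, *RAD54B*, *FANCI* and *RMI2* were not matched. An E2F word was found in the windows of 7 members, *EXO1*, *TOPBP1*, *XRCC2*, *FANCA*, *FANCC*, *FANCD2* and *RMI1*. That is 14.3% of the members' windows, against 3.31% of all 35116 RefSeq windows of the same length. Among the 21613 windows of protein-coding genes the share was 4.13%. In *EXO1* the word begins at base 4, in *XRCC2* at base 21 and in *FANCD2* at base -2, where the first transcribed base is 0. CCAAT was found in 44.9% of members' windows and in 34.6% of all windows, and TTTGAA in 8.16% against 15.2%. Windows of protein-coding genes held CCAAT in 34.9% and TTTGAA in 12.4%. A matching word is a description of these letters and not a bound site.

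Levels are given as cpm (counts scaled to the size of the library) after TMM scaling, and changes as log2 fold changes of a knockdown against its own control, with standard errors from edgeR's quasi-likelihood fit. A gene was called when its Benjamini-Hochberg adjusted p was under 0.05 over all genes tested and its change was at least 1.5-fold. All 42 members were tested in all 4 comparisons. The first libraries held 9854294 to 22101059 counts and the deep ones 27285889 to 59974740. *THUMPD3* itself fell in each comparison. In the first libraries it was 61.3 ± 1.52 cpm in sh1Control and 31.4 ± 1.29 in shD3 #1 (SD, n = 3 each), 63.2 ± 4.03 in sh4Control and 19.8 ± 0.529 in shD3 #4 (n = 3 each), and 67.1 ± 2.00 in siControl (n = 2) and 11.5 ± 0.972 in siD3 #3 (n = 3). In the deep libraries it was 54.3 ± 1.44 and 26.9 ± 1.76 (n = 3 each). The edgeR adjusted p values were 6.42e-09, 2.42e-15, 6.88e-06 and 1.55e-09 in that order, while exact two-sided permutation tests gave p = 0.1 with 3 against 3 libraries and p = 0.2 for siD3 #3, the smallest values these designs allow. The epithelial keratins *KRT8* and *KRT18* lay between 963 and 3414 cpm in every library. *KRT7* lay at 918 to 2243 cpm, *KRT19* at 19.7 to 139 and *CDH1* at 39.7 to 225. The sum of these 5 was 7632 to 7926 cpm in shD3 #1 against 5974 to 6290, and 6944 to 7034 against 4756 to 5327 in the deep libraries. It was 4818 to 5276 in shD3 #4 against 6686 to 6941, and 3756 to 6526 in siD3 #3 against 5161 to 6130. The summed endothelial markers reached at most 1.55 cpm and the haematopoietic ones at most 0.407 cpm in the first libraries. In the deep libraries the haematopoietic sum reached 97.7 cpm, and nearly all of it was *CD68*, with sums of 45.3 to 48.9 cpm in the controls and 89.7 to 97.7 in shD3 #1. The summed fibroblast markers, mostly *COL1A1* and *LUM* with *DCN* at or near 0, were higher in each knockdown, at 10.4 to 12.5 cpm against 5.97 to 7.97 with shD3 #1, 9.29 to 12.5 against 4.36 to 8.36 with shD3 #4, 6.57 to 7.97 against 2.89 to 4.43 with siD3 #3, and 27.4 to 29.9 against 8.06 to 8.75 in the deep libraries. The part of these markers in the results below was not tested.

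One library stood apart the most. Replicate 3 of siD3 #3 differed from replicates 1 and 2 by a chi-square per degree of freedom of 30.4 and 34.6 over genes, against 3.76 between replicates 1 and 2. Its value was the highest of the 3 for 31 of the 42 repair genes, so the count, the median and the changes of *EXO1*, *BRCA2*, *BRIP1*, *RAD54L*, *FANCA*, *BLM* and *EME1* are also given without it. For how many of all genes it was the highest was not counted. The other members called without it ran from -3.39 (*RAD51AP1*) to -0.61 (*RAD51C*). Smaller gaps were seen elsewhere. Replicate 3 of deep shD3 #1 gave 16.4 and 12.9 against 5.27, and replicate 3 of the first shD3 #1 libraries 6.35 and 9.09 against 1.82. Replicates 1 and 2 of shD3 #4 differed by 15.1.

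Many repair genes were called lower with siD3 #3 and shD3 #1, and 1 with shD3 #4. In the first shD3 #1 libraries 26 of the 42 were called lower, where 14.6% of all 16456 genes tested were, and the median of the 42 was -0.68 against -0.01 for all genes. With siD3 #3 32 were called lower, against 9.42% of 17032 genes, and the median was -1.73 against 0.03. With shD3 #4 a single member, *RMI2*, passed, against 4.50% of 16493 genes, with a median of -0.31 against 0.01. In the deep shD3 #1 libraries 9 were called lower, against 14.1% of 18763 genes, with a median of -0.39 against -0.02.

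No member was called higher in any of the 4 comparisons by edgeR, where 14.5% of all genes were with shD3 #1, 12.5% with siD3 #3, 8.0% with shD3 #4 and 15% in the deep libraries. DESeq2 also called 0 higher in each. At an unadjusted p under 0.05, the members above their control were *FANCF* with shD3 #1, *ATM* with shD3 #4 and *ETAA1*, *FANCF* and *FANCM* in the deep libraries, with 0 for siD3 #3. Without replicate 3 of siD3 #3 the siRNA called 33 members lower, with a median of -1.89; the added gene was *RAD51C*.

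Without the fold threshold the counts lay closer together. By adjusted p alone, 30 members were lower with shD3 #4 (20.8% of all genes), 35 with shD3 #1 (27.8%), 38 with siD3 #3 (16.4%) and 35 in the deep libraries (31.5%). 26 members were lower by adjusted p in all 4 comparisons, where shD3 #1 enters with both its first and its deep libraries. The share of all genes lower in all 4 was not counted. Every knockdown library lay below every control library for 32 members with shD3 #4, where 24.7% of all genes did so, and for 34 with shD3 #1 (31.2%), 39 with siD3 #3 (29.5%) and 35 in the deep libraries (34.0%).

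**Figure D1:**
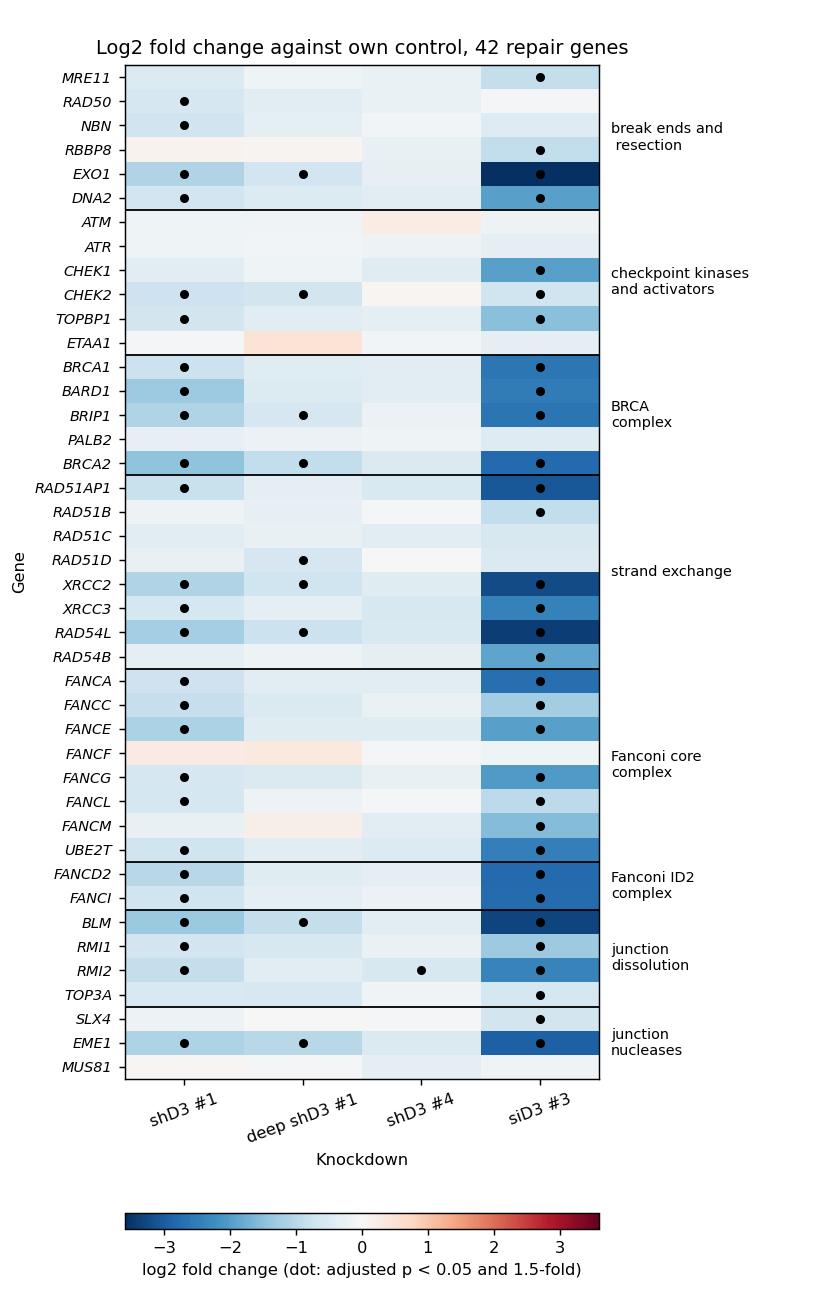
Log2 fold change of the 42 members (rows, grouped by role) in the 4 comparisons of a knockdown with its own control (columns), with blue for lower and red for higher on a shared colour scale. Dots mark an edgeR adjusted p under 0.05 with a change of at least 1.5-fold: 26 members with shD3 #1, 9 in the deep libraries, 1 with shD3 #4 and 32 with siD3 #3, all lower.

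Added up, the 42 members held 2103 to 2207 cpm in sh1Control and 1402 to 1484 cpm in shD3 #1. With shD3 #4 the sum was 1728 to 1787 cpm against 2059 to 2116 in sh4Control. With siD3 #3 it was 751 to 874 cpm against 2014 and 2062 in siControl. The deep libraries gave 1675 to 1705 cpm against 2107 to 2211. The groups did not overlap in any of the comparisons, and replicate 3 of siD3 #3 was the library with 874 cpm. In bulk RNA, fewer dividing cells and less RNA of these genes per cell cannot be told apart.

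**Figure D2:**
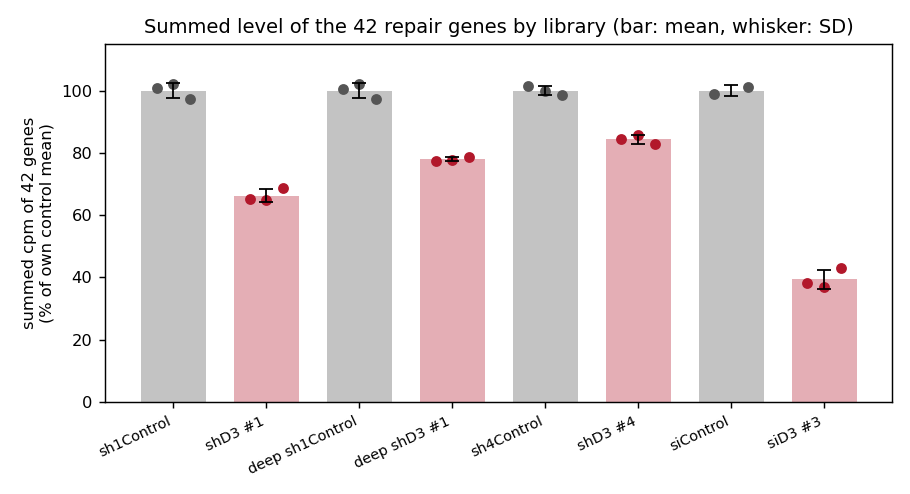
Summed cpm of the 42 members in each of the 23 libraries, as a percentage of the mean of the same comparison's control libraries (bars, group means; whiskers, SD; points, libraries). Knockdown libraries lay at 64.8 to 68.6% for shD3 #1, 77.4 to 78.8% in the deep set, 82.8 to 85.7% for shD3 #4 and 36.8 to 42.9% for siD3 #3.

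Among the 6 genes of break ends and resection, *EXO1*, the exonuclease of long-range resection, had the lowest mean change over the 3 knockdowns of the first table, and *RAD50*, the coiled-coil subunit of the MRE11 complex, had the highest mean change. With shD3 #1 4 of the 6 were called lower, with siD3 #3 4, in the deep libraries 1 and with shD3 #4 0. Counts by role group here and below are read against the shares of all genes called lower. Those were 14.6% with shD3 #1, 9.42% with siD3 #3, 4.50% with shD3 #4 and 14.1% in the deep libraries. The deep count, 16.7% of the 6, lay near its share. *EXO1* stood at 53.8, 54.8 and 55.7 cpm in sh1Control and at 24.8, 24.0 and 29.9 in shD3 #1. It was at 69.8 and 67.3 cpm in siControl and at 3.92, 4.05 and 9.16 in siD3 #3, the last of these being the library that stood apart. The siRNA change was -3.58 ± 0.31 (SE, edgeR adjusted p = 0.000144), and -4.11 ± 0.11 without that library. Its change ranked 63 from the lowest among the 17032 genes tested with siD3 #3. With shD3 #4 *EXO1* was at 43.5, 51.3 and 48.4 cpm against 61.8, 57.8 and 55.4, below all controls but by -0.29 ± 0.07. *DNA2*, a second resection nuclease, was called lower with shD3 #1 (-0.70) and siD3 #3 (-1.97), and with shD3 #4 it had the lowest change of the 6 (-0.41). *MRE11*, the nuclease of the end-binding complex, was called with siD3 #3 (-0.86), and *NBN*, another subunit, with shD3 #1 (-0.71). *RBBP8*, whose product CtIP starts resection, was called with siD3 #3 (-0.90) and stood at 0.14 ± 0.07 with shD3 #1.

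*RAD50* values need care. It stood at 10.2 to 12.1 cpm in sh1Control and 6.87 to 7.74 in shD3 #1 (-0.60 ± 0.11, adjusted p = 0.000318), and the call was lost without sh1Control replicate 1 (-0.58), sh1Control replicate 2 (-0.55) or shD3 #1 replicate 2 (-0.53). In the deep table it was at 174 to 178 cpm in sh1Control, 15.7 times the mean of the first table. In the GENCODE annotation used here, 76.9% of *RAD50* exonic bases are also covered by another gene on the same strand (ENSG00000283782), and the part of this overlap in the gap between the tables was not tested. With siD3 #3 *RAD50* gave 7.55, 6.85 and 6.92 cpm against 7.14 and 7.83, and the groups overlapped.

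The 6 checkpoint kinases and activators were split, with 2 called lower with shD3 #1, 3 with siD3 #3 and 1 in the deep libraries. The deep count was again 16.7% of the group, near the 14.1% of all genes. *ATR*, the kinase that senses single-stranded DNA, was called in no comparison, with changes of -0.32 to -0.11, and *ATM*, the kinase of double-strand breaks, lay between -0.19 and 0.26. By edgeR adjusted p alone *ATR* was lower with siD3 #3, shD3 #4 and in the deep libraries. *ATM* was lower with shD3 #1 (-0.17 ± 0.06, adjusted p = 0.0366) and in the deep libraries (-0.13 ± 0.04, adjusted p = 0.0162). In each of these every knockdown library lay below every control. With shD3 #4 *ATM* was at 148, 145 and 142 cpm against 113, 120 and 130 in sh4Control, all knockdown libraries above all controls (0.26 ± 0.07, adjusted p = 0.00197, under 1.5-fold). With siD3 #3 it was at 95.5, 84.1 and 98.4 cpm against 103 and 108. *CHEK1*, the effector kinase of ATR, fell with siD3 #3 from 46.7 and 50.2 cpm to 11.5, 11.5 and 14.5 (-1.95 ± 0.13), and by -0.42 and -0.44 with the 2 shRNAs of the first table. *TOPBP1*, which activates ATR, was called with shD3 #1 (-0.66) and siD3 #3 (-1.51), while *ETAA1*, the other ATR activator, was called nowhere. In the deep libraries *ETAA1* was at 33.9, 33.8 and 33.5 cpm against 24.6, 23.1 and 24.7 in the controls (0.48 ± 0.05, adjusted p = 1.91e-06, under 1.5-fold), whereas in the first libraries of the same shRNA the groups overlapped (-0.03 ± 0.07).

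*CHEK2*, the effector kinase of ATM, fell with shD3 #1 and not with shD3 #4, and the difference was called (-0.83 on the log2 scale). It stood at 17.5, 18.8 and 18.6 cpm in sh1Control and 11.7, 10.3 and 10.9 in shD3 #1 (-0.74 ± 0.09). With shD3 #4 it was at 16.5, 19.9 and 17.2 cpm against 17.1, 16.9 and 16.5, and the groups overlapped (0.08 ± 0.09). It was also called lower in the deep libraries (-0.66 ± 0.09) and with siD3 #3 (-0.71 ± 0.12), a value beside that of shD3 #1. *CHEK2* has 7 named pseudogenes in the annotation, so its reads may be shared with near copies.

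The BRCA group fell together, *PALB2* by the least and under 1.5-fold. *BRCA1* and *BARD1*, which form a ubiquitin ligase, *BRIP1*, a helicase bound to BRCA1, and *BRCA2*, which prepares trimmed ends for strand exchange, were each called lower with shD3 #1 and with siD3 #3. *BRCA2* had the lowest change of the 42 with shD3 #1. It was at 70.7, 80.4 and 71.4 cpm in sh1Control and 26.3, 25.3 and 30.5 in shD3 #1 (-1.45 ± 0.08, edgeR adjusted p = 7.2e-10). In the deep libraries it was at 42.1, 42 and 43.6 cpm against 78.5, 82.0 and 76.4 (-0.89 ± 0.05). In the siRNA libraries it was at 7.03, 5.25 and 14.1 cpm against 56.3 and 67.8 (-2.81 ± 0.33, and -3.33 ± 0.15 without replicate 3). With shD3 #4 it was at 46.8, 51.7 and 44.5 cpm against 65.3, 68.5 and 70.6 (-0.52 ± 0.07), below every control and short of 1.5-fold.

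*BRIP1* was at 66.0, 62.5 and 55.9 cpm in sh1Control and 28.7, 29.3 and 29.5 in shD3 #1 (-1.07 ± 0.08). With siD3 #3 it was at 6.51, 7.54 and 13.6 cpm against 53.4 and 61.5 (-2.63 ± 0.27, and -3.04 ± 0.12 without replicate 3). Deep libraries gave it at 42.4, 39.4 and 43.8 cpm against 64.6, 67.2 and 61.2 (-0.62 ± 0.06), a call lost without deep shD3 #1 replicate 2 (-0.58). No group of knockdown libraries overlapped its controls in these comparisons. *PALB2*, which bridges BRCA1 and BRCA2, moved least, from -0.46 ± 0.10 with siD3 #3 to -0.17 ± 0.07 with shD3 #4, and was called in none. By edgeR adjusted p alone *PALB2* was lower in all 4 comparisons, each with every knockdown library below every control.

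Of the 8 strand-exchange genes, 4 were called lower with shD3 #1, 6 with siD3 #3 and 3 in the deep libraries; *XRCC2*, *XRCC3*, *RAD54L* and *RAD51AP1* fell with both shD3 #1 and siD3 #3. *XRCC2*, which helps in strand exchange and whose window is printed above, was at 70.3, 66.3 and 60.5 cpm in sh1Control and at 30.1, 31.6 and 31.1 in shD3 #1 (-1.09 ± 0.07). It was at 61.9 and 60.4 cpm in siControl and at 5.14, 6.74 and 7.82 in siD3 #3 (-3.22 ± 0.16). Its deep levels were 32.4, 36.7 and 32.8 cpm against 57, 59.9 and 50.3 (-0.72 ± 0.07). With shD3 #4 it was at 40.0, 49.7 and 43.3 cpm against 62.6, 60.6 and 56.6 (-0.44 ± 0.07), so that all 4 comparisons showed libraries without overlap.

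*RAD54L*, a motor protein of strand pairing, had the lowest mean change in the group. It was at 13.1, 12.3 and 11.8 cpm in sh1Control and 5.62, 5.32 and 4.68 in shD3 #1 (-1.24 ± 0.12). In the siRNA libraries it was at 0.519, 0.799 and 1.69 cpm against 10.7 and 10.5 (-3.39 ± 0.36), the lowest library holding 11 counts, and at -4.03 ± 0.24 without replicate 3. Its paralogue *RAD54B* was called with siD3 #3 (-1.90 ± 0.21) and not with the shRNAs; 66.0% of its exonic bases are shared with *FSBP* on the same strand. *XRCC3* was even among the siRNA libraries at 7.88, 7.94 and 8.07 cpm against 41.2 and 44.9 (-2.43 ± 0.10), and 76.7% of its exonic bases lie opposite a gene on the other strand.

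*RAD51B*, *RAD51C* and *RAD51D*, which act together in strand exchange, lay nearer 0. *RAD51B* was called with siD3 #3 (-0.89 ± 0.18), and *RAD51C*, at -0.58 ± 0.09 with siD3 #3, lay just under 1.5-fold. *RAD51D* was called in the deep libraries, at 26.1, 26.3 and 25.8 cpm against 38.5, 40.7 and 39.2 (-0.60 ± 0.05), a call lost without deep sh1Control replicate 2 (-0.58). In the first libraries of the same shRNA it was at 21.5, 18.9 and 19.9 cpm against 22.9, 24.1 and 25.6 (-0.27 ± 0.08), and with shD3 #4 its change was 0.00 ± 0.08.

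In the Fanconi core complex, 6 of 8 genes were called lower with shD3 #1 and 7 of 8 with siD3 #3, while 0 of 8 were in the deep shD3 #1 libraries and 0 of 8 with shD3 #4. By adjusted p alone 5 and 6 of the 8 were lower in the latter pair, against 31.5 and 20.8% of all genes. *FANCA*, a scaffold subunit, was at 55.5 and 47.9 cpm in siControl and 5.85, 7.14 and 10.8 in siD3 #3 (-2.70 ± 0.22, and -3.01 ± 0.13 without replicate 3), and had the lowest mean change. *UBE2T*, the enzyme that carries ubiquitin to the ligase, fell by 2.47 on the log2 scale with siD3 #3 and by 0.72 with shD3 #1. *FANCL*, the ligase itself, was called with both at -0.93 and -0.63, and had -0.06 ± 0.06 with shD3 #4. *FANCM*, the motor that anchors the complex on DNA, was called with siD3 #3 (-1.56 ± 0.17). It was -0.28 ± 0.09 in the first shD3 #1 libraries and 0.22 ± 0.05 in the deep ones.

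*FANCF*, an adaptor subunit, was the core member that did not fall. It was at 18.1, 16.3 and 14.4 cpm in shD3 #1 against 12.7, 14.7 and 12.4 in sh1Control (0.31 ± 0.10, adjusted p = 0.0205), overlapping groups. In the deep libraries it was at 10.4, 11.7 and 12.7 cpm against 9.33, 8.61 and 9.38 (0.35 ± 0.09, adjusted p = 0.00309), above every control and under 1.5-fold. With siD3 #3 it was at 12, 14.1 and 9.21 cpm against 13.3 and 12.7, and with shD3 #4 at 16.2, 13.1 and 13.1 against 15.9, 14.5 and 13.9. Both of the latter overlapped.

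The targets of the core complex, *FANCD2* and *FANCI*, were both called lower with shD3 #1 and with siD3 #3. *FANCD2* went from 98.0, 98.5 and 94.0 cpm in sh1Control to 47.3, 47.4 and 51.2 in shD3 #1 (-1.0 ± 0.06). In the siRNA libraries it was at 10.0, 11.6 and 13.5 cpm against 82.4 and 80.6 (-2.80 ± 0.13). *FANCI* was at 21.6, 20.8 and 31.7 cpm against 174 and 163 in the same libraries (-2.77 ± 0.17), and its change with shD3 #1 was -0.72 ± 0.06. The difference between the shRNAs was called for *FANCD2* (-0.67 ± 0.11) and fell short of 1.5-fold for *FANCI* (-0.52 ± 0.14). Neither was called in the deep libraries, where *FANCD2* lay at 75.3, 78.7 and 77.4 cpm against 104, 108 and 99.7 (-0.43 ± 0.05), or with shD3 #4 (-0.33 and -0.21).

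The 4 genes of junction dissolution were all called lower with siD3 #3. *BLM*, the helicase that separates joined DNA molecules, was at 60.7 and 68.4 cpm in siControl and 5.28, 5.60 and 8.81 in siD3 #3 (-3.29 ± 0.20, and -3.58 ± 0.11 without replicate 3). It was at 62.8, 60.4 and 59.8 cpm in sh1Control and 23.5, 24.1 and 24.9 in shD3 #1 (-1.34 ± 0.07). Deep libraries gave it at 31.3, 29.9 and 33.2 cpm against 57.6, 56.9 and 58.0 (-0.87 ± 0.05). Its groups did not overlap with shD3 #4 either, at 44, 43.9 and 42.2 cpm against 61.7, 57.7 and 54.7 (-0.42 ± 0.07). *TOP3A*, the topoisomerase partner of BLM, lay near the threshold in 3 comparisons, at -0.62 ± 0.12 with siD3 #3, -0.55 ± 0.08 with shD3 #1 and -0.58 ± 0.05 in the deep libraries. With shD3 #4 it was -0.13 ± 0.07 and the groups overlapped. Its siRNA call was lost without siControl replicate 1 (-0.58) or siD3 #3 replicate 1 (-0.53). It gained a call with shD3 #1 without sh1Control replicate 1 (-0.59) or shD3 #1 replicate 3 (-0.60), and in the deep libraries without deep sh1Control replicate 3 (-0.60), deep shD3 #1 replicate 1 (-0.59) or deep shD3 #1 replicate 3 (-0.60).

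*RMI2*, a small subunit of the BLM complex, was the member called with shD3 #4. It was at 10.9, 9.80 and 9.12 cpm in shD3 #4 against 15.2, 16.3 and 13.4 in sh4Control (-0.59 ± 0.10, adjusted p = 3.34e-05). The call was lost without sh4Control replicate 1 (-0.58), sh4Control replicate 2 (-0.52), shD3 #4 replicate 2 (-0.58) or shD3 #4 replicate 3 (-0.53), since its change lay at the 1.5-fold line. The number of members called with shD3 #4 then was 0, 0, 0 and 2, and it was 2 without sh4Control replicate 3 or shD3 #4 replicate 1. *RMI2* was also called with shD3 #1, at 6.90, 7.50 and 6.11 cpm against 11.2, 13.3 and 13.1 (-0.85 ± 0.12), and with siD3 #3, at 2.69, 2.28 and 3.09 cpm against 13.3 and 15.2 (-2.40 ± 0.18).

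Among the junction nucleases, *EME1* was called lower in 3 comparisons and its partner *MUS81* in none. *EME1* was at 21.4, 20.6 and 20 cpm in sh1Control and 9.71, 9.53 and 9.37 in shD3 #1 (-1.11 ± 0.09). Its deep levels were 11.3, 11.5 and 11.4 cpm against 21.5, 24.1 and 22.7 (-1.0 ± 0.07), the lowest change of the 42 there. With siD3 #3 it was at 2.83, 2.28 and 4.33 cpm against 22.4 and 26.0 (-2.93 ± 0.23, and -3.24 ± 0.16 without replicate 3), and with shD3 #4 its change was -0.52 ± 0.08, not called. *MUS81*, the catalytic subunit, was at 28.0, 27.2 and 29.1 cpm in shD3 #1 against 26.2, 27.4 and 28.6, and at 25.1, 24.3 and 28.0 in siD3 #3 against 31.0 and 26.3, with overlap in both. With shD3 #4 it was at 22.3, 22.3 and 22.5 cpm against 28.6, 26.7 and 28.6 (-0.32 ± 0.07, adjusted p = 0.000892), below every control and under 1.5-fold. *SLX4*, the scaffold of these nucleases, was called with siD3 #3 (-0.65 ± 0.11).

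No member was called in all 4 comparisons. The 9 called in 3 of them were *EXO1*, *CHEK2*, *BRIP1*, *BRCA2*, *XRCC2*, *RAD54L*, *BLM* and *EME1*, which lacked the call with shD3 #4, and *RMI2*, which lacked it in the deep libraries. 7 members were called in none: *ATM*, *ATR*, *ETAA1*, *PALB2*, *RAD51C*, *FANCF* and *MUS81*. Of the 26 called with shD3 #1, 24 (92.3%) were called with siD3 #3, where they made up 75.0% of the 32. Of all 42 members, 76.2% were called with siD3 #3, and the same overlap was not counted over all genes. *RAD50* and *NBN*, 2 subunits of the end-binding complex, were called with shD3 #1 and not with siD3 #3. With the siRNA *NBN* lay below both controls (-0.46 ± 0.08, edgeR adjusted p = 0.00477) and under 1.5-fold. *MRE11* of the same complex was called with siD3 #3 (-0.86) and not with shD3 #1 (-0.48).

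**Figure D3:**
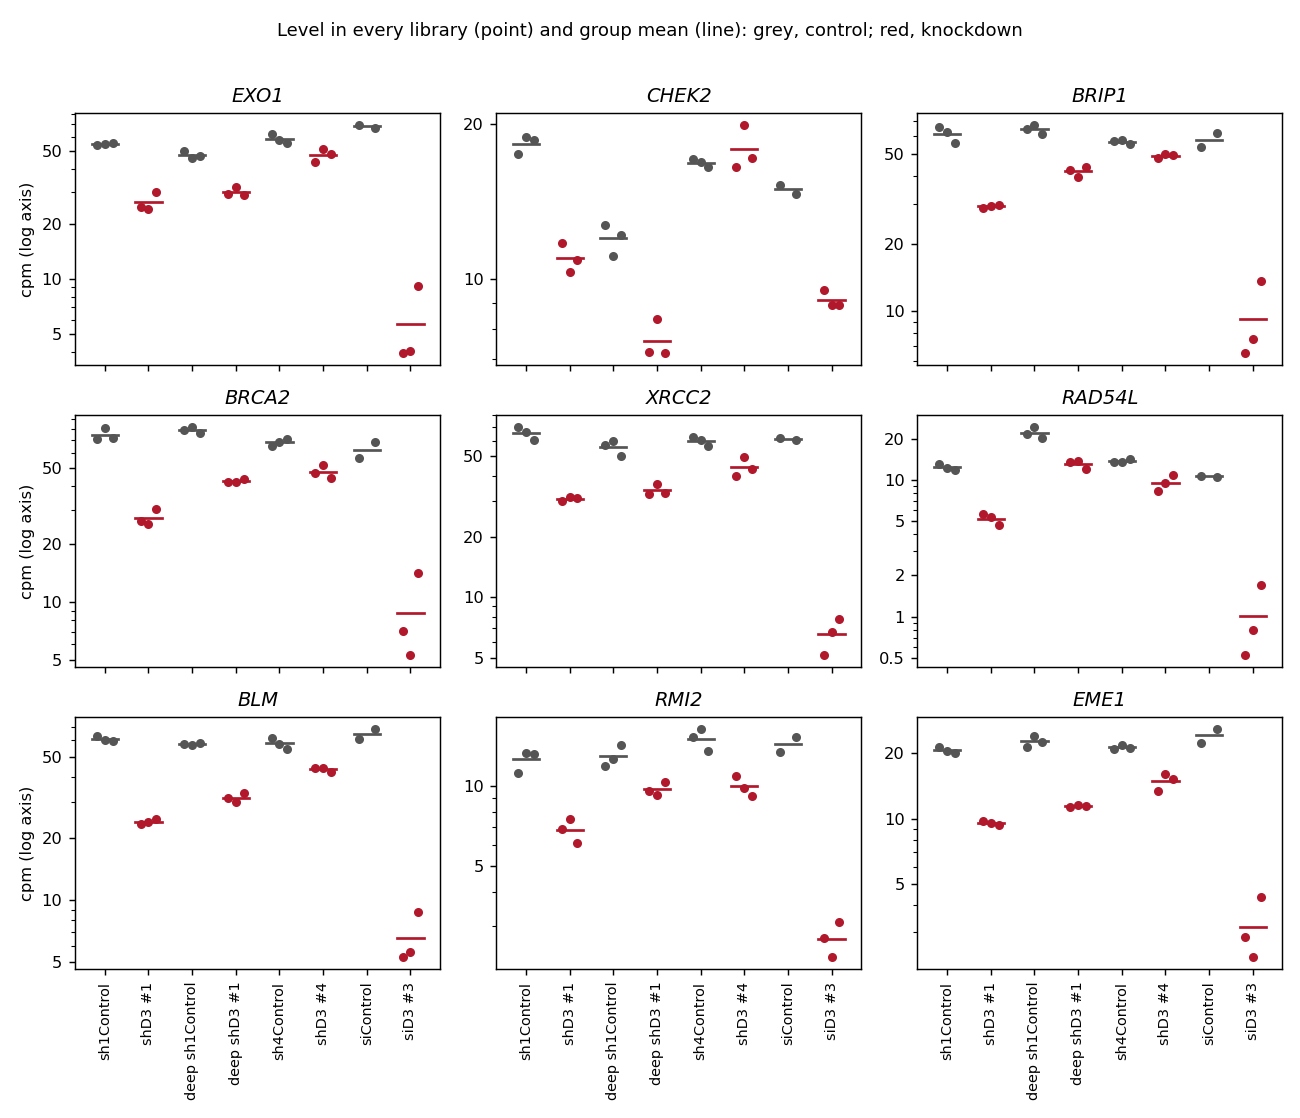
Level in cpm on a log axis of the 9 members called lower in 3 of the 4 comparisons, in every library (points) with group means (lines), for 4 control groups (grey) and 4 knockdown groups (red). Groups of siD3 #3 lay farthest below their control except for *CHEK2*, whose shD3 #4 libraries overlapped sh4Control.

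The changes of the 42 members can be set side by side between knockdowns that shared no library. Pearson's r between shD3 #1 and siD3 #3 was 0.78 across members and 0.44 across 15972 genes tested in both. It was 0.53 against 0.09 for shD3 #1 with shD3 #4, and 0.71 against 0.40 for shD3 #4 with siD3 #3. With the deep shD3 #1 libraries in place of the first ones it was 0.34 against 0.20 for shD3 #4 and 0.60 against 0.34 for siD3 #3. These are descriptions across genes, which are not independent replicates, and members with few counts or overlapping annotation carry that into every comparison.

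The 3 knockdowns differed from each other in size, tested as a difference of changes within 1 edgeR fit of the 17 first libraries. The fall was larger with shD3 #1 than with shD3 #4 for 12 members, where the difference was called lower for 13.8% of all 18672 genes, and not called higher for any member. The largest were *BRCA2* (-0.93 ± 0.24, adjusted p = 0.00381) and *BLM* (-0.92 ± 0.14, adjusted p = 3.57e-05), and the others were *BARD1*, *BRIP1*, *CHEK2*, *EXO1*, *FANCE*, *RAD54L*, *FANCD2*, *XRCC2*, *NBN* and *EME1*. *THUMPD3* itself was left at 51.1% of control with shD3 #1 and at 31.4% with shD3 #4, the opposite order. The fall was larger with siD3 #3 than the mean of the shRNAs for 27 members, against 7.12% of all genes, with *EXO1* (-2.88 ± 0.22, adjusted p = 2.21e-09) and *RAD54L* (-2.49 ± 0.26, adjusted p = 2.83e-07) the largest. *RAD50* had the highest difference of the 42, at 0.36, and was not called. Delivery, day of collection and control differed between siRNA and shRNAs and cannot be told apart from the target sequence.

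The log2 value in the deep libraries of shD3 #1 lay above that in the first libraries for 37 of the 42 members. Those include *ETAA1* and *FANCF*, whose deep changes were the larger ones and upward. 8 were called in both sets, which is 30.8% of the 26 and 88.9% of the 9, the ninth being *RAD51D*. Neither the 37 nor the 8 was set against a matching count over all genes, so they are not read as particular to the repair genes. *THUMPD3* was at 51.1% of control in the first set and 49.6% in the deep one. The gap was widest in *BARD1*, at -1.31 ± 0.10 in the first libraries and -0.49 ± 0.07 in the deep ones, and in *FANCE*, at -1.14 ± 0.17 and -0.44 ± 0.14. The difference between the sets was not tested, as the tables were counted with different gene names and normalised apart. Deviations of same-numbered first and deep libraries from their group means correlated at 0.04 to 0.14 in sh1Control and 0.12 to 0.28 in shD3 #1 across genes. Differently numbered libraries gave -0.10 to 0.04 and -0.28 to 0.22, which overlap those values. The sources used here do not say whether first and deep libraries came from the same cultures.

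**Figure D4:**
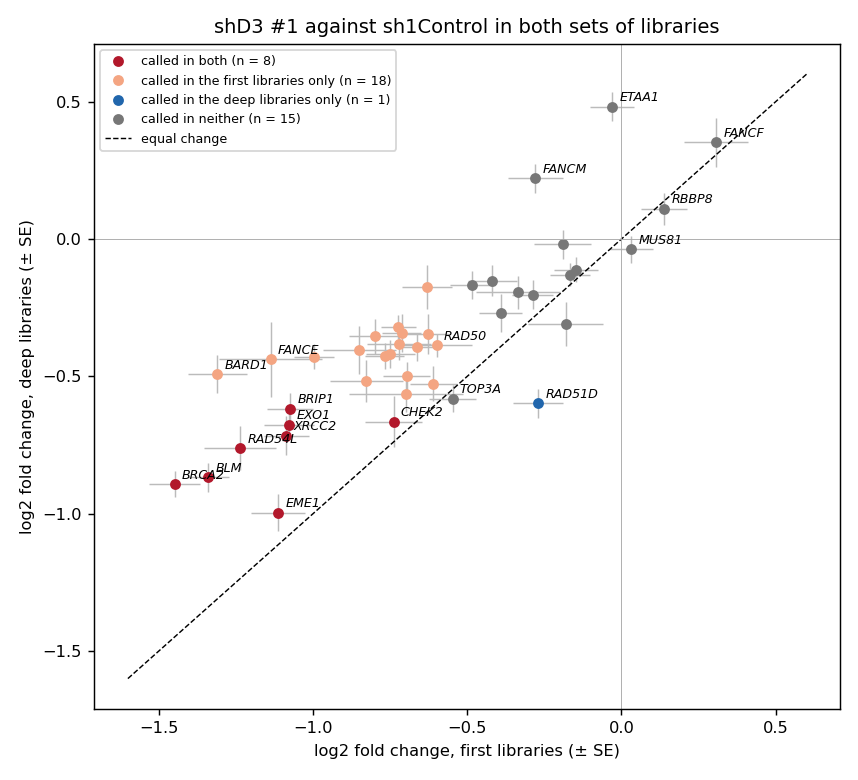
Log2 fold change of each of the 42 members with shD3 #1 in the first (x axis) and the deep libraries (y axis), with standard errors as bars and a dashed line of equal change. 37 points lie above the line, 8 members were called in both sets, 18 in the first alone and *RAD51D* in the deep alone.

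The E2F words and the calls can be set side by side. All 7 members with an E2F word in their window were called lower with shD3 #1 and with siD3 #3, with medians of -0.83 and -2.70. Of the 30 with a window and no such word, 15 and 21 were called, with medians of -0.57 and -0.92 and changes down to -1.45 and -3.39. In the deep libraries 2 of the 7 and 7 of the 30 were called, with medians of -0.52 and -0.35. With shD3 #4 none of either kind was called, at medians of -0.33 and -0.27. No test was run on this split.

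Other genes of the same pathways, from a list of 56, are read against the shares of all genes given above, which were 14.6, 9.42, 4.50 and 14.1% lower with shD3 #1, siD3 #3, shD3 #4 and in the deep libraries. With shD3 #1 16 of the 55 tested (29.1%) were called lower and 0 higher, with a median of -0.23. *CLSPN*, the adaptor between ATR and CHEK1, was lowest at -1.5 and *SFR1*, a cofactor of strand exchange, highest at 0.58. With siD3 #3 27 of 54 (50%) were called lower, from *CLSPN* at -3.52 to *REV3L*, a translesion polymerase, at 0.53, with a median of -0.57. With shD3 #4 5 of 54 (9.26%) were called, *TIPIN* lowest at -0.77, and in the deep libraries 7 of 54 (13.0%) were lower, a share under that of all genes, *RPA3* lowest at -1.08, and *SFR1* was higher (0.65). Within the list, the homologous recombination genes had 10 of 20 (50%) called lower with shD3 #1 and 11 of 19 (57.9%) with siD3 #3. The further Fanconi genes had 2 of 15 (13.3%, under the share of all genes) and 6 of 15 (40%). Those of the replication checkpoint had 3 of 10 (30%) and 8 of 10 (80%). Those of the BRCA1-A complex and ubiquitin signalling had 1 of 10 (10%, under the share of all genes) and 2 of 10 (20%). In this order the groups had 3 of 19, 1 of 15, 1 of 10 and 0 of 10 called lower with shD3 #4. The deep libraries gave 5 of 20, 0 of 14, 2 of 10 and 0 of 10.

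Genes of other repair pathways were taken from a list of 50 for end joining, mismatch, base excision and nucleotide excision repair. With shD3 #1 5 of 49 (10.2%, under the share of all genes) were called lower and 2 higher, with a median of -0.18, from *NEIL3*, a DNA glycosylase, at -1.5 to *POLB*, the polymerase of base excision repair, at 0.84. With siD3 #3 15 of 49 (30.6%) were called lower and 1 higher, with a median of -0.29, from *NEIL3* at -2.98 to *XPC*, a damage sensor of nucleotide excision repair, at 0.90. With shD3 #4 2 of 49 (4.08%, under the share of all genes) were called lower, *XRCC4* at -0.70 and *NEIL3* at -0.60, and in the deep libraries 3 of 48 (6.25%, under the share of all genes) lower and 2 higher. Of the end joining genes, 3 of 10 (30%) were called lower with shD3 #1 and 5 of 10 (50%) with siD3 #3. The shares of all genes were 14.6 and 9.42%. Base excision genes had 2 of 16 (12.5%) and 7 of 16 (43.8%). Mismatch repair genes had 0 of 7 and 3 of 7 (42.9%). In this order 1 of 10, 1 of 16 and 0 of 7 were lower with shD3 #4. The deep libraries gave 1 of 10, 2 of 16 and 0 of 7. Of the nucleotide excision genes, 0 of 16 were called lower by edgeR with shD3 #1, shD3 #4 and siD3 #3 and 0 of 15 in the deep libraries. By adjusted p alone 1, 5, 2 and 1 were lower, where 27.8, 20.8, 16.4 and 31.5% of all genes were.

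Proliferation markers were lower in the same libraries. Of 12 markers, all 12 were called lower with siD3 #3, 8 with shD3 #1, 5 with shD3 #4 and 3 in the deep libraries. That is 100, 66.7, 41.7 and 25% of the markers, against 9.42, 14.6, 4.50 and 14.1% of all genes. The medians of the markers were -3.18, -0.76, -0.47 and -0.26. Their summed level was 348 to 455 cpm in siD3 #3 against 2473 and 2482 in siControl, and 1304 to 1401 cpm in shD3 #1 against 2736 to 2865 in sh1Control. With shD3 #4 it was 1933 to 2164 cpm against 2764 to 2852, and in the deep libraries 2196 to 2292 against 3271 to 3366. *AURKB*, a mitotic kinase, was lowest with siD3 #3 (-3.70), with shD3 #1 (-1.56) and in the deep libraries (-1.03), and *MCM5*, a replicative helicase subunit, with shD3 #4 (-0.87). The part of proliferation in the repair genes' change was not tested.

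**Figure D5:**
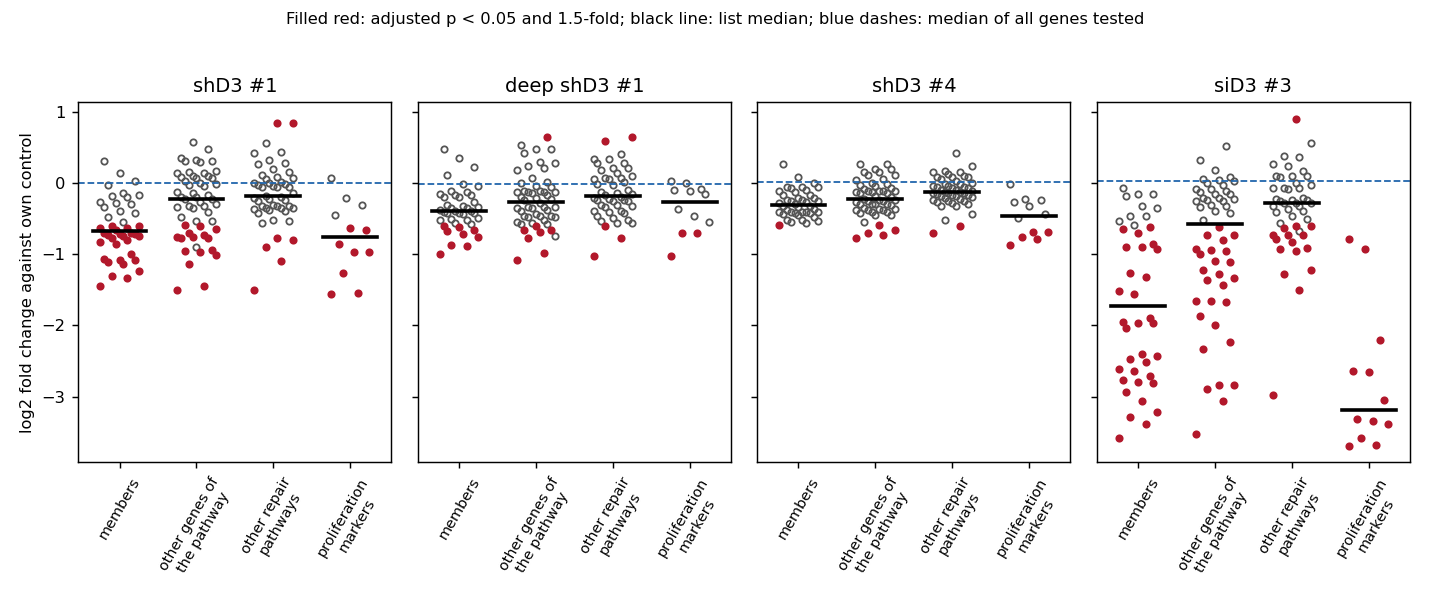
Log2 fold change of each gene (points) of the 42 members, of 56 other genes of the pathways, of 50 genes of other repair pathways and of 12 proliferation markers in the 4 comparisons, with called genes in filled red, list medians as black lines and the median of all genes tested as blue dashes. Member medians lay at -0.68, -0.39, -0.31 and -1.73 from left to right, below the all-gene medians of -0.01, -0.02, 0.01 and 0.03.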

How the data were processed

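RNA-seq of A549 cells gave 23 libraries in 2 tables of gene counts. Per the study's methods and the submitters' processing notes, the authors trimmed reads with Trimmomatic 0.40, aligned them to GRCh38 with STAR 2.7.10a, counted reads per gene in the aligner and used DESeq2. The deposited counts are whole numbers with no normalisation. The strand column used is not stated. RefSeq is named as annotation, although the first table lists Ensembl IDs. IDs were matched to symbols and positions with GENCODE 44, which may not be the release the authors used. Columns of values not mapped to a sample numbered 0.

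Each knockdown was compared with its own control by edgeR 4.0.16 (TMM, filterByExpr, quasi-likelihood test, Benjamini-Hochberg adjustment) in R 4.3.3. Differences between knockdowns came from 1 fit of the 17 first libraries. Scripts were tested on simulated data. Alternatives were DESeq2 1.42.0, its size factors, library totals, leaving out mitochondrial genes, 2 other filters, other thresholds, a replicate block, 1 joint fit and leaving out each library. The members and gene lists were chosen with earlier results of these data known. Named genes were the lowest and highest member of each comparison and role group and the 2 largest called differences. As no member was called in all 4 comparisons, members called in 3 were added after their values were seen, as were genes named one by one beside them. No pair of replicates agreed to within sampling noise, the closest having a chi-square per degree of freedom of 1.82. The study's methods name biological replicates, and how cultures were kept apart is not stated in the sources used here. 1 gene is not reported here.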

Additional observations from a re-analysis of the deposited data

Results flagged for a closer look

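The effects of the 2 shRNAs differed beyond the threshold in 12 members by the test of the difference itself. The 2 largest were *BRCA2*, at -0.93 on the log2 scale for shD3 #1 minus shD3 #4, and *BLM*, at -0.92. *BRCA2* was lower in 3 of 3 knockdown libraries with either shRNA.

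The effect of the siRNA differed from the mean of the shRNAs in 27 members, led by *EXO1* at -2.88 and *RAD54L* at -2.49. All 3 siRNA libraries lay below both controls for these 2 genes. No group held 4 or more libraries, so no library could be tested as an outlier within its group.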

How the results depend on the processing

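Of the counts and medians over the 42 members, 207 recomputed values stayed within the tolerance and 23 moved, and none changed direction. The 207 include counts of members higher that were 0 in the main fit and stayed 0. They also include differences between the shRNAs refitted without a siRNA library, which is not part of that difference. Such values had little room to move, so the tally is not a measure of robustness. The tolerance was 1.5 times for a count and 1 SD between libraries for a median, so a count can shift further than a median and still stay within it. Requiring a log2 change of 1 left 9 members lower with shD3 #1, 25 with siD3 #3, 0 in the deep libraries and 0 with shD3 #4. Over all genes it left 1086 of 16456 lower, 787 of 17032, 1277 of 18763 and 187 of 16493, in that order. Between the shRNAs 0 members then differed, where the difference was lower for 1440 of 18672 genes and higher for 1140. Adjusted p alone gave 35 lower and 1 higher with shD3 #1 and 38 lower with siD3 #3. It gave 35 lower and 3 higher in the deep libraries and 30 lower and 1 higher with shD3 #4. Over all genes 4582, 2801, 5909 and 3433 were lower, in that order. Higher were 4713 with shD3 #1, 5832 in the deep libraries and 3292 with shD3 #4. Between the shRNAs 24 members differed, 22 lower and 2 higher, where 3692 of 18672 genes were lower and 3666 higher. Scaling by library totals alone gave medians of -0.61 (shD3 #1), -0.35 (deep) and -0.38 (shD3 #4), called 6 members with shD3 #4 and left 6 that differed between the shRNAs. It also changed the split over all genes, to 1024 lower and 1111 higher with shD3 #4 (742 and 1320 with TMM) and to 2020 and 1700 with siD3 #3 (1605 and 2135). With it the small changes of *ETAA1* with shD3 #1 (0.04) and *RAD51D* with shD3 #4 (-0.07) took the other sign. With no filter on low counts the deep median was -0.42, and with at least 10 counts in every library 0 members were called with shD3 #4. The cause of these moves was not tested beyond what each setting changes by construction.

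Leaving out each library in turn gave 23 to 26 members lower with shD3 #1, 9 to 11 in the deep libraries, 0 to 2 with shD3 #4 and 30 to 33 with siD3 #3, with medians of -0.70 to -0.64, -0.41 to -0.37, -0.34 to -0.29 and -1.89 to -1.64. Between the shRNAs 9 to 14 members differed, and 26 to 28 between the siRNA and the shRNAs. Leaving out 1 siControl library leaves a lone control, assumed to vary like the siRNA libraries. A replicate block gave 26, 9, 1 and 33 members lower and 13 and 27 that differed. Same-numbered libraries correlated at -0.08 to 0.12 in their deviations, so the numbers were not taken to pair them. Depth limits *RAD54L* most, with 11 counts in its lowest siRNA library.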
